A study of Mus musculus with 24 samples.

Results

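SCA1 S776A mice carry 1 expanded Atxn1 allele with serine replaced by alanine at the site named S776, beside 1 unedited WT allele (Atxn1 154Q[S776A]/2Q). Their cerebellar RNA was compared with that of WT mice (Atxn1 2Q/2Q) to ask what remained changed in the presence of the expanded repeat when S776 of the expanded protein was lost. The members were the 4 libraries labelled with this genotype and those 4 of the 8 WT libraries in which over 8% of all fragments fell outside annotated genes, so 8 of the 24 libraries of the series. All mice were 6 weeks old, the knockin lines had been backcrossed to C57BL/6J, and 1 library was made from the cerebellum of each mouse. The labels do not give which founder line of the edited allele the RNA came from, nor the sex. Ddx3y exceeded Xist in 8 of the 8 libraries. SCA1 mice (Atxn1 154Q/2Q, 4 libraries), which carry the same repeat with an intact serine, are given beside them.

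Spinocerebellar ataxia type 1 (SCA1) is caused by a CAG repeat expansion that lengthens the polyglutamine tract of ATXN1, a nuclear protein that works with the transcriptional repressor Capicua (CIC). Purkinje cells, the inhibitory output neurons of the cerebellar cortex, are the cell type in which the disease is best known. Phosphorylation of S776, in the C-terminal part of ATXN1, allows 14-3-3 proteins to bind and is known for stabilizing the protein, so its loss lowers the amount of ATXN1 protein. RNA counts do not measure that protein.

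The edited codon lies in the last exon of Atxn1, whose gene spans chr13:45549755-45965008 on the minus strand of GRCm38. The sequence is shown because the edit that separates SCA1 S776A from SCA1 mice lies in it. The paper states that synonymous changes were introduced beside the serine-to-alanine change, and these are not marked here. In GENCODE transcript Atxn1-201 the arginine-rich 14-3-3 type motif (R, any 2 residues, S, any residue, P) matched at 2 serines, and the C-terminal one is residue 751 of 791, the serine called S776 in the names of the mice. The codon is at chr13:45557178-45557180, in exon 8 of 8, and the unedited reference, with the serine codon in capitals and the coding strand read 5′ to 3′, is as follows.
Atxn1 coding sequence, chr13:45557133-45557225: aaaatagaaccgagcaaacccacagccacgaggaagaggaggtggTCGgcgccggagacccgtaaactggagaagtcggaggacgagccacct
The gene counts do not separate the edited from the unedited allele.

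The 8 libraries held 83096869 to 101167144 fragments, of which 62163600 to 75461253 were counted on genes. The fragments outside annotated genes made up 9.83% to 12.0%, against 5.23% to 6.31% in the 8 libraries of the other group, which held the remaining 4 WT libraries and the WT S776A homozygous libraries. The paper states 2 sequencing batches without listing them, so this share was taken as the batch. Pairs of WT libraries differed across genes by a median SD of 0.23 (log2 ratio), pairs of SCA1 S776A libraries by 0.259 and pairs across the groups by 0.242, between those of the 2 groups. The summed level of 13 choroid plexus markers was 233, 38.3, 1853 and 1850 CPM (counts scaled to the size of the library) in WT 1 to 4, and 52.4, 3328, 2771 and 1838 in SCA1 S776A 1 to 4. This tissue lies beside the cerebellum, and its amount differed by mouse within both groups. Of 14 brainstem and midbrain markers, 6 were tested, and the summed level was at most 12.3 CPM.

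Few genes passed the edgeR test of SCA1 S776A against WT mice. Of 22502 genes tested with edgeR's quasi-likelihood test, 3 were lower in SCA1 S776A (0.0133%) and 0 were higher (0%) where a call needed an adjusted p (Benjamini-Hochberg) below 0.01 together with a log2 fold change beyond 0.5 in either direction. The 3 genes were the long noncoding RNAs Gm5083 and 4930447F24Rik and the nicotinic receptor subunit Chrna3. At an adjusted p under 0.05 with any fold change, 5 genes were lower and 0 higher, which added Nab2 and Myo15. At an unadjusted p under 0.05, 439 genes were lower and 446 higher, together 3.93% of those tested. If no gene differed, a share of about 0.05 would be expected to pass. DESeq2 called 7 lower and 2 higher. ComBat-seq followed by DESeq2, the order of steps in the study, called 17 lower and 17 higher against the WT libraries of both batches.

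**Figure D1:**
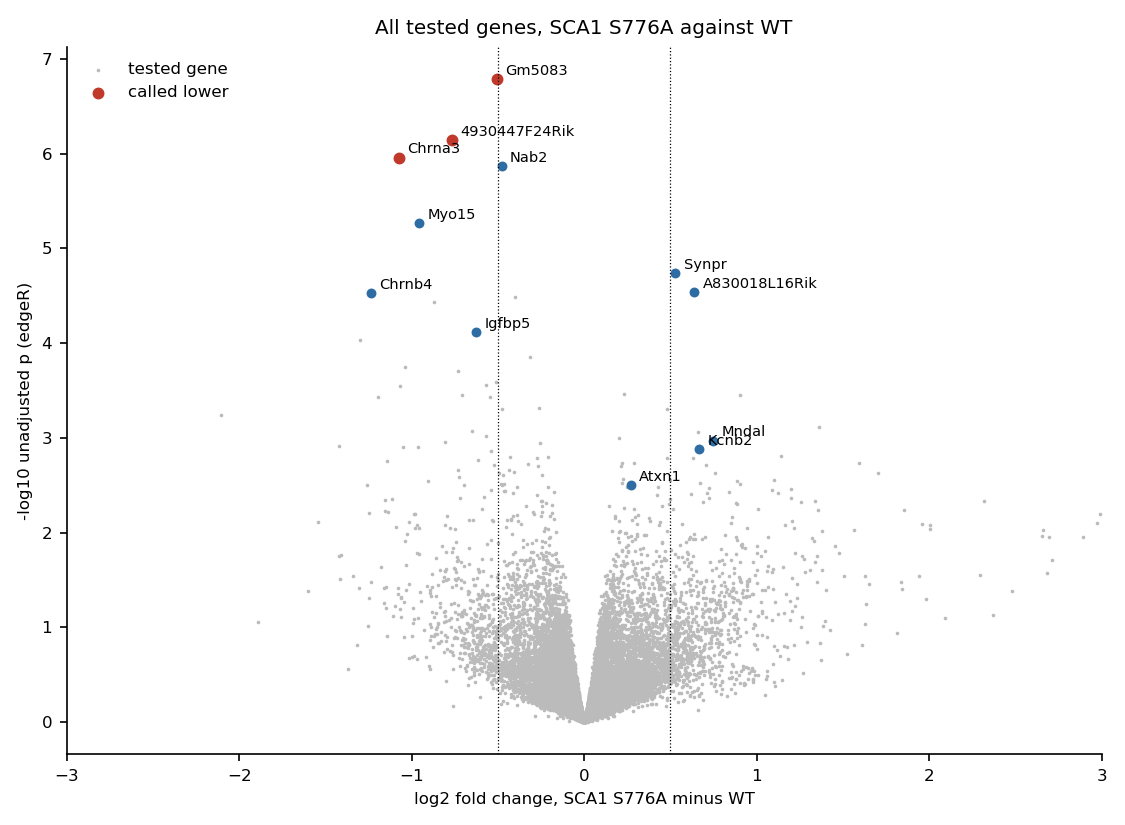
Each grey point is 1 tested gene, with the log2 fold change of SCA1 S776A minus WT on the horizontal axis and the negative log10 of the unadjusted edgeR p on the vertical axis; 6 genes lie beyond the horizontal range. The 3 called genes, in red, all lie on the lower side. Dotted lines mark a log2 fold change of 0.5 in either direction. Blue points are a selection of the other genes named in the text, and the rest of those are grey.

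Atxn1 itself, counted over both alleles, had 50.03, 54.1, 50.1 and 49.1 CPM in the WT libraries and 61.1, 62.0, 55.3 and 67.0 CPM in the SCA1 S776A libraries. The lowest SCA1 S776A library lay above the highest WT library. The log2 fold change was 0.27 (SE 0.08), which did not pass the test across all genes (edgeR adjusted p = 0.87). The exact two-sided permutation test of Atxn1 alone gave p = 0.0286, the smallest p that 4 against 4 libraries allow. SCA1 mice had 58.8 ± 3.65 CPM (SD, n = 4), and the direct log2 difference between SCA1 S776A and SCA1 was 0.06 (SE 0.08), an interval that spans 0. The 4 WT libraries of the other batch ran from 47.9 to 62.0 CPM, a range that reached into that of the edited mice.

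The 3 called genes were separated completely between the groups. Gm5083, a long intergenic noncoding RNA of unknown role at chr13:44121167-44125179, had 19.5, 18.0, 17.2 and 17.8 CPM in WT and 13.9, 12.0, 12.4 and 12.8 CPM in SCA1 S776A. Every SCA1 S776A library was below every WT library, and the log2 fold change was -0.51 (SE 0.07, edgeR adjusted p = 0.00367). The gene lies 1.42 Mb from Atxn1 on the same chromosome, the one that carries the knockin. A330076C08Rik, a neighbouring long intergenic RNA at chr13:44185760-44216487 and 1.33 Mb from Atxn1, had 3.71 to 4.30 CPM in WT and 1.69 to 2.57 CPM in SCA1 S776A (log2 fold change -0.87, SE 0.17, edgeR adjusted p = 0.0824). Of the 88 tested genes within 5 Mb of Atxn1, these 2 included and Atxn1 left out, 4 lay wholly below WT and 3 wholly above, with a median log2 fold change of -0.0076. Over all genes tested, 2.52% lay wholly below WT and 1.87% wholly above.

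4930447F24Rik, a noncoding transcript at chr9:108133718-108138567, had 12.2, 13.6, 12.7 and 12.8 CPM in WT against 8.32, 6.57, 8.64 and 6.51 CPM in SCA1 S776A. Its log2 fold change was -0.77 (SE 0.12, edgeR adjusted p = 0.0076). In the other batch, WT libraries ranged from 8.83 to 11.3 CPM, below every WT library of this batch and above every SCA1 S776A library. 4930447F24Rik overlaps Bsn, which encodes the presynaptic scaffold Bassoon, on the opposite strand. These unstranded counts cannot tell reads of the 2 genes apart by strand where they overlap.

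Chrna3 encodes the alpha3 subunit of neuronal nicotinic acetylcholine receptors and lies at chr9:55010111-55026562, minus strand. It had 1.99, 2.08, 2.21 and 1.53 CPM in WT and 0.844, 1.16, 0.904 and 0.801 CPM in SCA1 S776A, a level of 58 to 145 counts per library. No SCA1 S776A library reached the lowest WT library, and the log2 fold change was -1.08 (SE 0.17, edgeR adjusted p = 0.0076), a mean 2.11-fold lower. Chrnb4, its neighbour at chr9:55028154-55048779 and the beta4 subunit that assembles with alpha3, had 1.78, 2.74, 1.57 and 1.02 CPM in WT and 0.713, 0.882, 0.852 and 0.565 CPM in SCA1 S776A. Its log2 fold change was -1.24 (SE 0.24, edgeR adjusted p = 0.0808). WT 2 held the highest value and WT 4 the lowest, and the groups did not overlap. Chrna5, the third gene of the cluster, stayed under 0.1 CPM in all 8 libraries and was not tested.

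The 250 bases before the start of Chrna3 are shown because it was the receptor gene called. They are from RefSeq (GRCm38.p6), read 5′ to 3′ on the strand of the gene, with the GC box GGGCGG, in either orientation, in capitals.
Chrna3, chr9:55026563-55026812: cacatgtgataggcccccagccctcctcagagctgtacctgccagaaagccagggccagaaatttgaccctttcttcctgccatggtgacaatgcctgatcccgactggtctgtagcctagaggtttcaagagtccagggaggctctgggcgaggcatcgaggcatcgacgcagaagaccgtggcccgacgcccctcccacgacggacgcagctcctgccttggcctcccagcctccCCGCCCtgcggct
The window held 1 GC box, and 32.7% of 32851 RefSeq promoter windows of this length held at least 1. The CIC octamers TGAATGAA and TGAATGGA, searched on both strands, were not in this window and in 2.07% of all windows. The search covered 69 genes, those named by the rule together with Chrna4, Chrna5 and Gm15083. Of the 69, 46 had a RefSeq promoter window, and 0 of them held an octamer. Other genes in the text were not searched. A match or its absence says only which letters stand in the window.

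**Figure D2:**
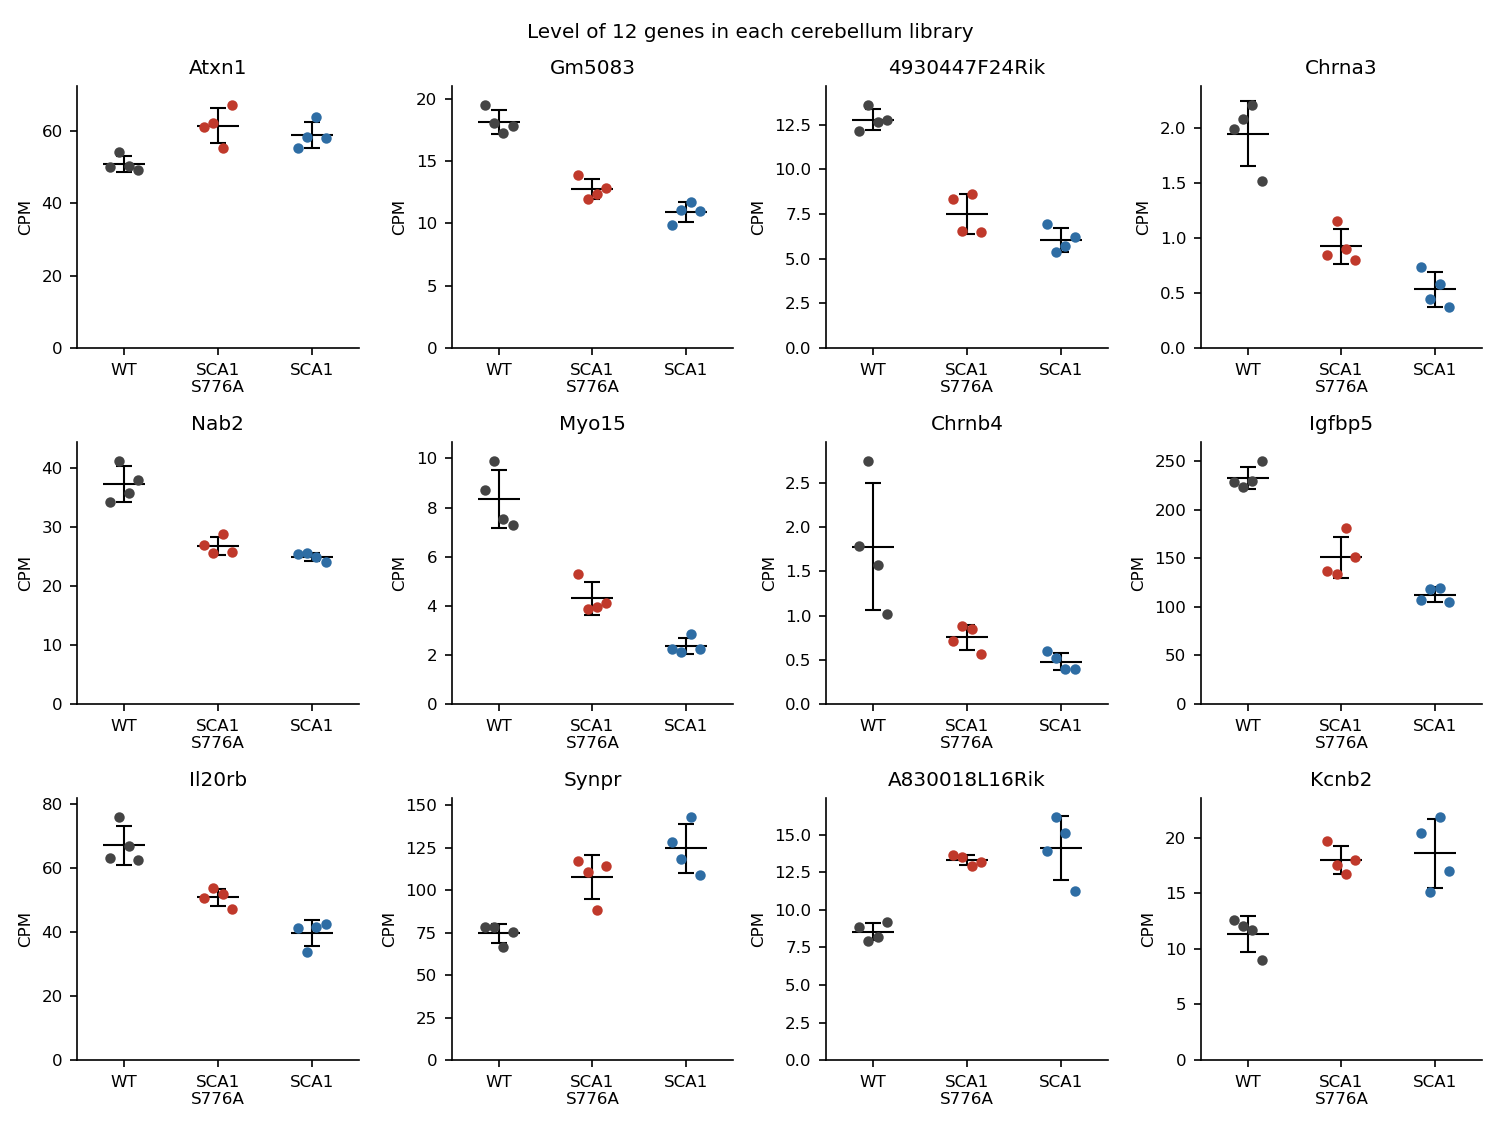
Points are the CPM of 12 genes in each of the 4 WT, 4 SCA1 S776A and 4 SCA1 libraries; horizontal bars are means and error bars are SDs (n = 4). For Chrna3 the SCA1 S776A points sit between 0.801 and 1.16 CPM, below the WT points and above the SCA1 points, while for Atxn1 both genotypes with the repeat sit above WT.

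Beyond the 3 called genes, the lower genes of smallest p included a transcriptional cofactor, a myosin, a secreted binding protein and a cytokine receptor subunit. In all, 568 genes lay wholly below the WT range in SCA1 S776A (2.52% of those tested) and 420 wholly above (1.87%). Nab2, a corepressor of the EGR transcription factors at chr10:127660918-127668568, had 34.3, 41.2, 35.9 and 38.0 CPM in WT and 26.9, 25.5, 28.9 and 25.8 CPM in SCA1 S776A. Its edgeR adjusted p was 0.0076, and it missed the call only because its log2 fold change was -0.48 (SE 0.08). Nab2 overlaps Stat6 and Nemp1 on the other strand, and these counts do not separate the overlapping stretches by strand. Myo15, an unconventional myosin known from the stereocilia of inner ear hair cells, had 8.71, 9.88, 7.52 and 7.30 CPM in WT and 5.28, 3.87, 3.95 and 4.10 CPM in SCA1 S776A (log2 fold change -0.96, SE 0.17, edgeR adjusted p = 0.0245). The 4 WT libraries of the other batch had 1.70 to 2.91 CPM of Myo15, under every SCA1 S776A library, so its WT level moved between batches by more than between these genotypes.

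Igfbp5, a secreted protein that binds insulin-like growth factors, had the highest WT level per length of the 10 lower genes of smallest p, at 38.8 CPM per kb of exon. Its WT libraries held 228, 223, 230 and 250 CPM and its SCA1 S776A libraries 137, 134, 181 and 152 CPM. The groups stood apart, with a log2 fold change of -0.62 (SE 0.13), and the edgeR adjusted p was 0.157. Il20rb, a receptor subunit for cytokines of the interleukin-20 family, had 62.3 to 75.7 CPM in WT and 47.0 to 53.6 CPM in SCA1 S776A (log2 fold change -0.40, SE 0.08, edgeR adjusted p = 0.0808), and the WT libraries of the other batch held 41.0 to 44.96 CPM. Pex5l, which binds HCN pacemaker channels, had 44.2 to 49.6 CPM in WT and 34.0 to 42.4 CPM in SCA1 S776A (log2 fold change -0.31, SE 0.07, edgeR adjusted p = 0.24). Of these, DESeq2 called Myo15, A330076C08Rik, Chrnb4 and Igfbp5, with adjusted p of 4.04e-05, 0.00238, 0.00238 and 0.00665.

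No gene passed the test as higher in SCA1 S776A. The 10 genes of smallest p among those wholly above WT were led by Synpr, synaptoporin, a membrane protein of synaptic vesicles. It had 78.0, 78.2, 66.4 and 75.3 CPM in WT and 117, 111, 88.4 and 114 CPM in SCA1 S776A, with a log2 fold change of 0.53 (SE 0.10, edgeR adjusted p = 0.069). SCA1 S776A 3 was the lowest of its group and still above every WT library of the batch. A830018L16Rik, a protein-coding gene at chr1:11414105-11975901, had 8.84, 7.95, 8.20 and 9.23 CPM in WT and 13.6, 13.5, 12.9 and 13.2 CPM in SCA1 S776A (log2 fold change 0.64, SE 0.13, edgeR adjusted p = 0.0808). These 2 were the genes that DESeq2 called higher, with adjusted p of 0.00155 for Synpr and 0.00225 for A830018L16Rik. For both, the WT libraries of the other batch lay at the level of the edited mice, at 101 to 117 CPM for Synpr and 13.3 to 16.7 CPM for A830018L16Rik.

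None of the other 8 had an adjusted p under 0.351. The potassium channel Kcnb2 (Kv2.2) had 8.96 to 12.6 CPM in WT and 16.7 to 19.7 CPM in SCA1 S776A. ComBat-seq followed by DESeq2, against the WT libraries of both batches, called Kcnb2 (log2 fold change 0.67, adjusted p = 0.00522). Mndal, of the interferon-inducible p200 family, had 2.698 to 3.60 CPM in WT and 4.19 to 6.17 CPM in SCA1 S776A. It shares its locus with Ifi203 and Ifi211, so its count is uncertain. ComBat-seq followed by DESeq2 also called Mndal (log2 fold change 0.75, DESeq2 adjusted p = 0.0064). The WT libraries of the other batch held 1.67 to 2.71 CPM of Mndal and 9.75 to 15.6 CPM of Kcnb2, both below every SCA1 S776A library. Ube2l6, the conjugating enzyme of the interferon-induced modifier ISG15, had 2.88 to 3.16 CPM in WT and 3.47 to 4.70 CPM in SCA1 S776A. For Ube2l6, the WT libraries of the other batch held 4.00 to 6.54 CPM, a range that overlapped that of SCA1 S776A. Gpr85, an orphan receptor of the brain, differed by only 0.23 on the log2 scale (SE 0.06) but ran from 48.4 to 51.2 CPM in WT and 55.7 to 59.3 CPM in SCA1 S776A. The WT libraries of the other batch held 57.6 to 61.3 CPM of Gpr85, a range that overlapped that of the edited mice. Log2 fold changes of the remaining 4 were 0.48 for the cell cycle arrest gene Rprm, 0.20 for Cd200, the ligand of the inhibitory receptor CD200R, 0.63 for the coagulation factor subunit F13a1 and 0.22 for the growth factor receptor adaptor Grb10. In the WT libraries of the other batch, Cd200 had 44.5 to 49.7 CPM, above the 37.8 to 41.1 CPM of SCA1 S776A. Rprm, at 2.04 to 3.12 CPM there, overlapped the 2.74 to 3.37 CPM of SCA1 S776A. F13a1 and Grb10, at 0.872 to 1.10 and 28.5 to 30.8 CPM there, lay below every SCA1 S776A library.

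Against the WT libraries of both batches, ComBat-seq followed by DESeq2 called 34 genes. Of these, 15 had a mean under 0.1 CPM over the 8 libraries (4 lower and 11 higher). Of the 34, 11 are among the genes already named. Of the others at a higher level, the synaptic adhesion gene Clstn2 had a log2 fold change of -0.51 and the carbonic anhydrase Car9 of -0.73, both named after their values were seen.

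The differences of these genes in SCA1 mice are given beside them, and both use the same 4 WT libraries. The SCA1 minus WT log2 difference was -1.86 for Chrna3, -1.89 for Chrnb4, -1.82 for Myo15, -1.05 for Igfbp5, -0.73 for Gm5083 and -1.08 for 4930447F24Rik, against -1.08, -1.24, -0.96, -0.62, -0.51 and -0.77 in SCA1 S776A. For Nab2 and A330076C08Rik the 2 genotypes were close, with SCA1 differences of -0.58 and -0.94 against -0.48 and -0.87. For A830018L16Rik and Kcnb2 the SCA1 differences were 0.72 and 0.71, against 0.64 and 0.67. Pex5l, F13a1 and Ube2l6 had larger differences in SCA1 S776A, at -0.31, 0.63 and 0.48 against -0.12, 0.11 and 0.27. These genes were picked by their SCA1 S776A values, which favours a larger difference there. The direct log2 difference from SCA1 was -0.20 (SE 0.07), 0.52 (SE 0.18) and 0.21 (SE 0.13), none past the threshold.

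The direct test of SCA1 S776A against SCA1 called 0 genes lower (0%) and 1 gene higher (0.00444%) with edgeR. At an unadjusted p under 0.05, 426 of the 22502 genes tested were lower and 553 higher. A share of about 0.05 of them would be expected to pass if no gene differed. DESeq2 called 0 lower and 4 higher, and ComBat-seq followed by DESeq2 called 5 lower and 7 higher. The gene called was Gm15083, an antisense RNA at chr6:114004789-114052265 across Atp2b2, the plasma membrane calcium pump. It had 2.91, 2.06, 2.44 and 3.14 CPM in SCA1 S776A against 0.961, 1.00, 1.25 and 1.16 CPM in SCA1 (log2 difference 1.27, SE 0.17, edgeR adjusted p = 0.00117). With the library SCA1 1 or SCA1 2 left out, 0 genes were called. The WT level of Gm15083, 2.60 to 3.78 CPM, overlapped that of SCA1 S776A (log2 fold change -0.26, SE 0.16). Where the 2 genes overlap, the unstranded counts cannot tell reads of Atp2b2 and Gm15083 apart by strand. Atp2b2 had 720 to 826 CPM in SCA1 S776A and 636 to 747 CPM in SCA1. For the genes lower than WT, the direct log2 difference was 0.87 for Myo15 (SE 0.17, edgeR adjusted p = 0.186), 0.79 for Chrna3 (SE 0.18, edgeR adjusted p = 0.3) and 0.36 for Il20rb (SE 0.08, edgeR adjusted p = 0.3), none past the threshold in edgeR. Myo15 was 1 of the 4 genes that DESeq2 called higher than in SCA1 (log2 difference 0.87, DESeq2 adjusted p = 0.00298). For Nab2 it was 0.10 (SE 0.08), and for A830018L16Rik -0.08 (SE 0.12), differences within 2 SE of 0.

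**Figure D3:**
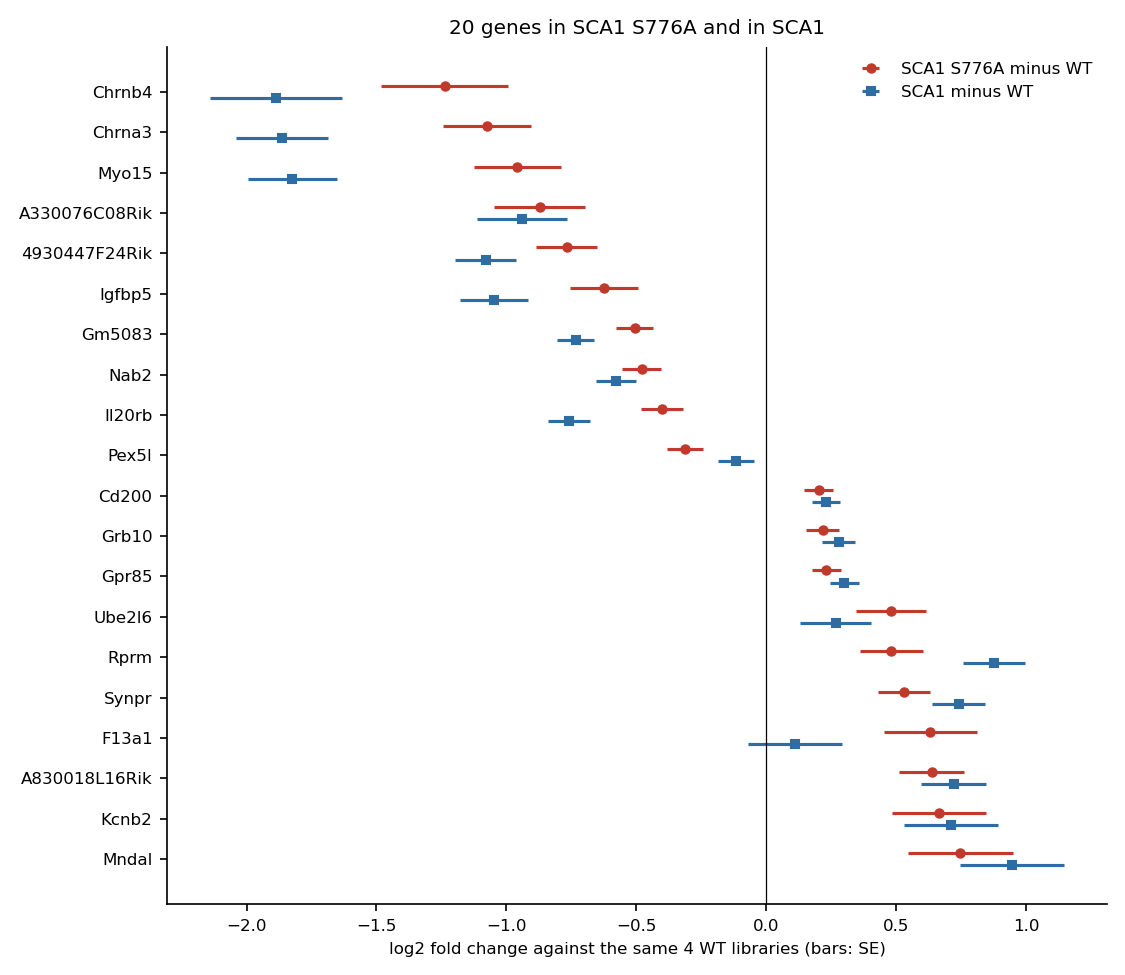
For 20 genes, red circles are the log2 fold change of SCA1 S776A minus WT and blue squares that of SCA1 minus WT, both fitted by edgeR against the same 4 WT libraries, and bars are SEs. The genes are the 10 lower and 10 higher of smallest p whose SCA1 S776A and WT libraries did not overlap, so the red values were chosen to lie away from 0.

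Nicotinic receptor subunits, ligand-gated cation channels opened by acetylcholine, were the list with the largest lower differences. Of 9 subunits, 8 were tested, 1 was called lower (Chrna3) and 4 lay wholly below WT, with 0 wholly above. Among all genes tested, 2.52% lay wholly below WT and 1.87% wholly above, the shares to set beside each list that follows. The median log2 fold change of the 8 was -0.29, against 0.0033 over all genes tested. Chrna4 had 4.25 to 4.98 CPM in WT and 2.91 to 4.19 CPM in SCA1 S776A (log2 fold change -0.41, SE 0.14), and the beta2 subunit gene Chrnb2 had 126 to 143 CPM and 110 to 124 CPM (log2 fold change -0.17, SE 0.11). Neither passed the test. In SCA1 mice Chrna4 had 3.61 to 4.98 CPM, a range that overlapped WT. Chrna6 and Chrnb3, at under 0.5 CPM, had log2 fold changes of 0.73 and 0.36, and Chrna7 of 0.07, with overlapping groups.

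Purkinje cell genes were slightly lower as lists, with 0 members called. Of 18 Purkinje cell markers, 17 had a log2 fold change under 0, compared with 48.8% of all genes tested. Of the 18, 3 lay wholly below WT, Itpr1 and Lhx1 among them, compared with 2.52% of all genes tested. The list median was -0.15. The summed level of these markers was 12013, 10410, 10479 and 10614 CPM in WT, 10158, 8792, 9709 and 10274 CPM in SCA1 S776A and 7817 to 8763 CPM in SCA1. WT 1 stood above the other WT libraries, and without it the median was -0.09. In bulk tissue, fewer Purkinje cells and less RNA per Purkinje cell cannot be told apart. Calb1, the calcium buffer calbindin, had 1130 to 1194 CPM in WT and 1024 to 1166 CPM in SCA1 S776A, which overlapped (log2 fold change -0.08, SE 0.08). Rgs8, a regulator of G-protein signalling, had a log2 fold change of -0.20 and the transcription factor Lhx5 of -0.22, both with overlapping groups.

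The mGluR1 pathway turns glutamate release from parallel fibres into calcium release in Purkinje cells. In this list, 16 of 16 members had a log2 fold change under 0, from -0.33 to -0.02, compared with 48.8% of all genes tested. The list median was -0.16 (-0.10 without WT 1), and 5 lay wholly below WT, compared with 2.52% of all genes tested. Plcb3, a phospholipase C, had 102, 93.4, 84.7 and 88.0 CPM in WT and 71.1, 67.6, 70.1 and 83.4 CPM in SCA1 S776A (log2 fold change -0.33, SE 0.15). WT libraries of the other batch held 64.7 to 77.3 CPM of Plcb3, a range that overlapped that of SCA1 S776A. Itpr1, the IP3 receptor that releases calcium from the endoplasmic reticulum, had 3358 to 4157 CPM and 2700 to 3263 CPM, and the calcium pump Atp2a2 (SERCA2) had 1383 to 1600 CPM and 1204 to 1371 CPM. The phosphatase Inpp5a, with a log2 fold change of -0.15, overlapped. None of the 16 passed the test, and 7 of them are also in the Purkinje marker list.

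Among 20 ion channels of Purkinje cell firing, 0 were called, 7 lay wholly below WT and 0 above, with a median of -0.12 (-0.11 without WT 1). The share of all tested genes wholly below WT was 2.52%. The potassium channel Kcna2 (Kv1.2) had 574, 575, 547 and 545 CPM in WT and 500.3, 457, 479 and 456 CPM in SCA1 S776A. Its log2 fold change was -0.24 (SE 0.08, edgeR adjusted p = 0.97), its SCA1 value was -0.25, and the WT libraries of the other batch held 379 to 488 CPM. The calcium-activated channel Kcnma1 had 292 to 317 CPM in WT and 245 to 284 CPM in SCA1 S776A. Its level in the WT libraries of the other batch was 240 to 258 CPM. The sodium channel subunit Scn4b, the potassium channel Kcnd3 and the pacemaker channel Hcn2 also lay wholly below WT, with log2 fold changes of -0.22, -0.14 and -0.22. Of 24 tested genes of other spinocerebellar ataxias, 0 were called and 5 lay wholly below WT, Itpr1, Kcnd3 and Atxn2 among them, with a median of -0.06 (-0.02 without WT 1); the repeat gene Ppp2r2b had 0.10.

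**Figure D4:**
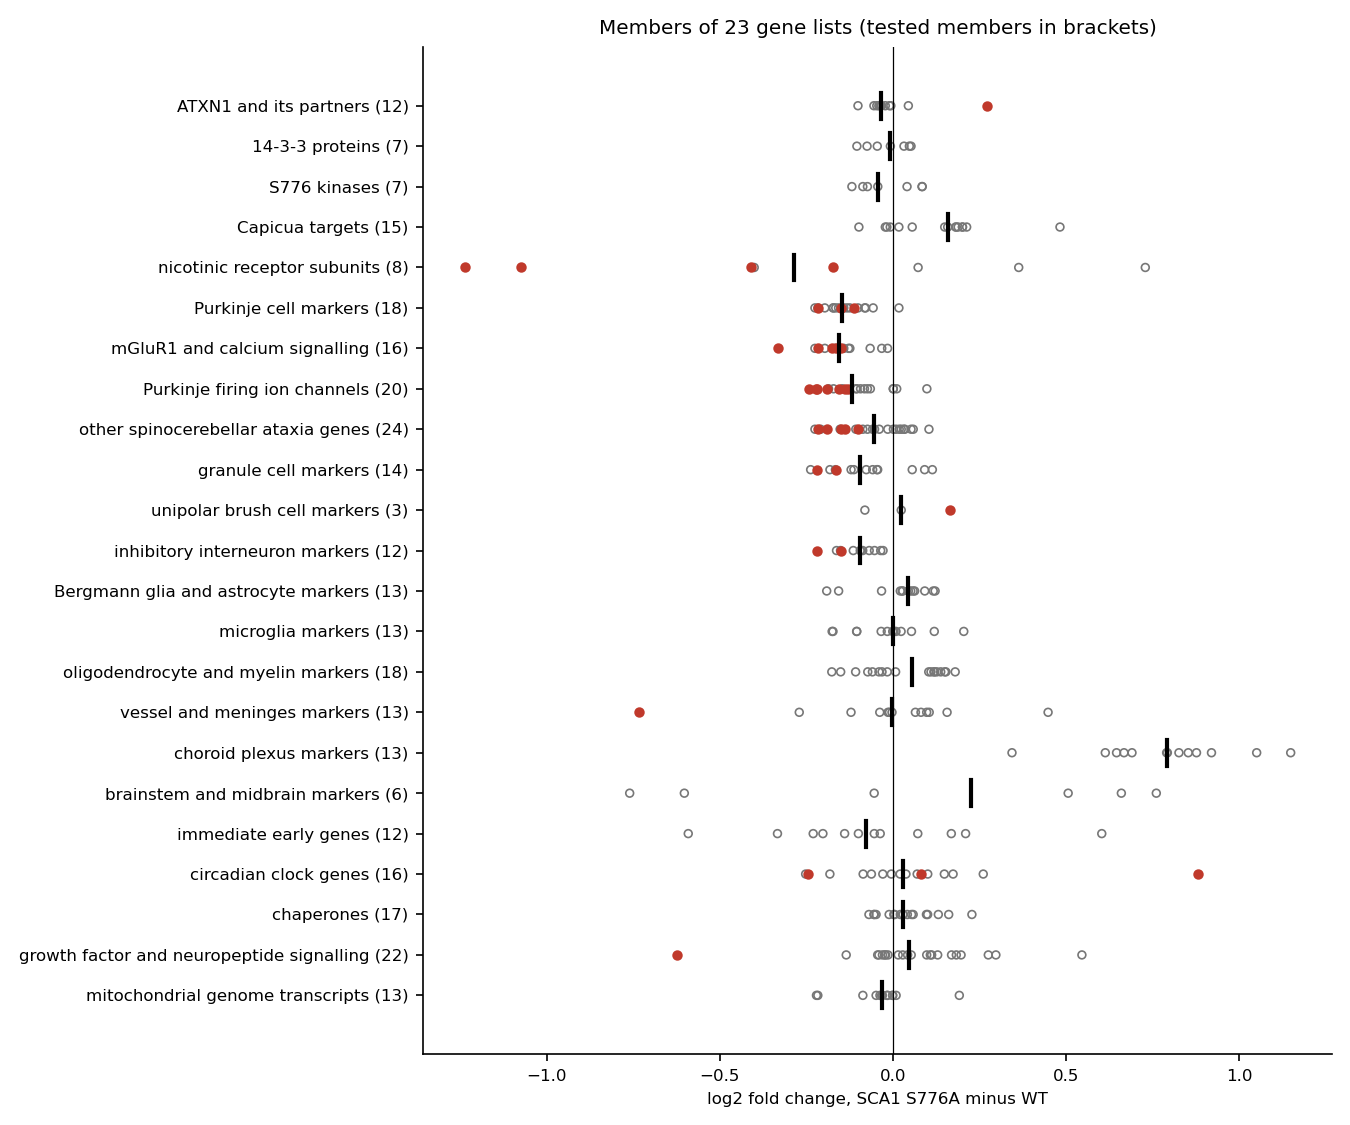
Each circle is 1 tested member of the gene list named at the left, placed at its log2 fold change of SCA1 S776A minus WT; filled red circles have no overlap between the 4 and 4 libraries, and black bars are list medians. The nicotinic subunits spread furthest to the lower side, the mGluR1 and calcium list has 16 of 16 members below 0, and the choroid plexus markers sit together above 0 with overlapping groups.

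Other neurons of the cerebellum showed small differences. Of 14 granule cell markers, 2 lay wholly below WT, Chn2 (log2 fold change -0.22) and Rbfox3 (-0.17), with a list median of -0.10, and the transcription factor Zic2, at -0.18, overlapped. Of 12 inhibitory interneuron markers, 12 were under 0 with a median of -0.09 (-0.04 without WT 1), and Lgi2 and the glycine transporter Slc6a5 lay wholly below WT, while the GABA-synthesizing enzyme Gad2 overlapped at -0.11. Of 3 unipolar brush cell markers, the calcium-binding protein Calb2 lay wholly above WT, at 474 to 569 CPM against 434 to 473 CPM (log2 fold change 0.16, SE 0.10). For Calb2, the WT libraries of the other batch held 639 to 702 CPM, above every SCA1 S776A library. Those WT libraries held 105 to 126 CPM of Lgi2, which overlapped the 99.7 to 118 CPM of SCA1 S776A. They held 644 to 733 CPM of Chn2, above every SCA1 S776A library. Lmx1a, at a level of 0.699 to 2.87 CPM, had -0.08. No member of these lists was called. Among all genes tested, 2.52% lay wholly below WT, 1.87% lay wholly above and 48.8% had a log2 fold change under 0.

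Glial and immune lists had 0 members called and 0 without overlap. Their median log2 fold changes were 0.04 for 13 Bergmann glia and astrocyte markers, -0.0009 for 13 microglia markers and 0.06 for 18 oligodendrocyte and myelin markers. Gfap, the intermediate filament of reactive astrocytes, had 173 to 180 CPM in WT and 165, 183, 173 and 238 CPM in SCA1 S776A, with SCA1 S776A 4 above the rest (log2 fold change 0.12, SE 0.10). The members of smallest p were Sox9 (-0.19) and Gja1 (0.09) for astrocytes, Cx3cr1 (-0.17) and Itgam (0.20) for microglia, and Sox10 (-0.18) and Cldn11 (0.15) for oligodendrocytes.

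Of 13 vessel and meninges markers, Col1a1, a collagen of meningeal fibroblasts, had 70.3, 70.9, 67.5 and 61.3 CPM in WT and 41.9, 36.2, 32.8 and 51.6 CPM in SCA1 S776A. The groups were apart, at a log2 fold change of -0.73 (SE 0.21, edgeR adjusted p = 0.824), while Lum, another meningeal matrix gene, had 0.45 with overlapping groups. The WT libraries of the other batch held 19.9 to 24.4 CPM of Col1a1, under every SCA1 S776A library. The median of this list was -0.0030, and the amount of meninges on each sample was not tested. The 13 choroid plexus markers had a median of 0.79 (0.49 without WT 1 and 0.33 without the 3 libraries under 500 CPM of these markers) and 0 without overlap, with Otx2 at 0.34 and Kcnj13 at 0.92. The 6 tested brainstem and midbrain markers had a median of 0.23, with 3 under 0 and 3 over it, from -0.76 for Dbh to 0.76 for Hoxa2, and Tph2 at 0.51.

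No gene for a protein that acts with ATXN1 passed the test. Of 12 tested genes for ATXN1 and its partners, 1 lay wholly above WT (Atxn1) and 0 below, with a median of -0.03. Cic had 223 to 239 CPM in WT and 215 to 240 CPM in SCA1 S776A (log2 fold change -0.04, SE 0.23). The paralog Atxn1l had 56.3 to 63.3 CPM and 55.6 to 60.7 CPM (log2 fold change -0.02, SE 0.09), and the splicing factor U2af2 was at -0.05. The 7 genes for 14-3-3 proteins had a median of -0.0077, with Ywhah at -0.10 and Ywhab at 0.05, and the 7 genes of kinases proposed for S776 had -0.04, with Rps6ka4 at -0.12 and Prkaca at -0.09. None of these 14 lay wholly outside the WT range. Of 15 Capicua targets, 0 did, and the median was 0.16, with the phosphatase Dusp4 at 0.48 (SE 0.30) and Phlda1 at 0.20. The Capicua median was 0.09 without WT 1 and -0.0091 without the 3 libraries under 500 CPM of choroid plexus markers.

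Lists that follow stress, activity or time of day were mixed. Of 16 circadian clock genes, Per2 and Nr1d2 lay wholly above WT and Arntl wholly below, with a median of 0.03. Per2 had 29.9, 28.6, 31.0 and 39.8 CPM in WT and 47.97, 42.5, 68.1 and 79.6 CPM in SCA1 S776A (log2 fold change 0.88, SE 0.47), and 14.2 to 54.6 CPM in SCA1. Cry1, with 0.26, overlapped. The hour of collection is not in the labels. Of 12 immediate early genes, 0 lay outside the WT range, with Arc at -0.33, Fosb at 0.60 and a median of -0.08. The 17 chaperones had a median of 0.03 and 0 outside the range, with Hspa8 at 0.16 and Dnajb1 at 0.13. The 13 mitochondrial genome transcripts had a median of -0.03 and 0 outside it, with mt-Nd4l at -0.22 and mt-Nd3 at 0.19. Of 22 tested genes of growth factor and neuropeptide signalling, Igfbp5 was the 1 gene outside the range, with a median of 0.05, and Vegfb was at -0.14.

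**Figure D5:**
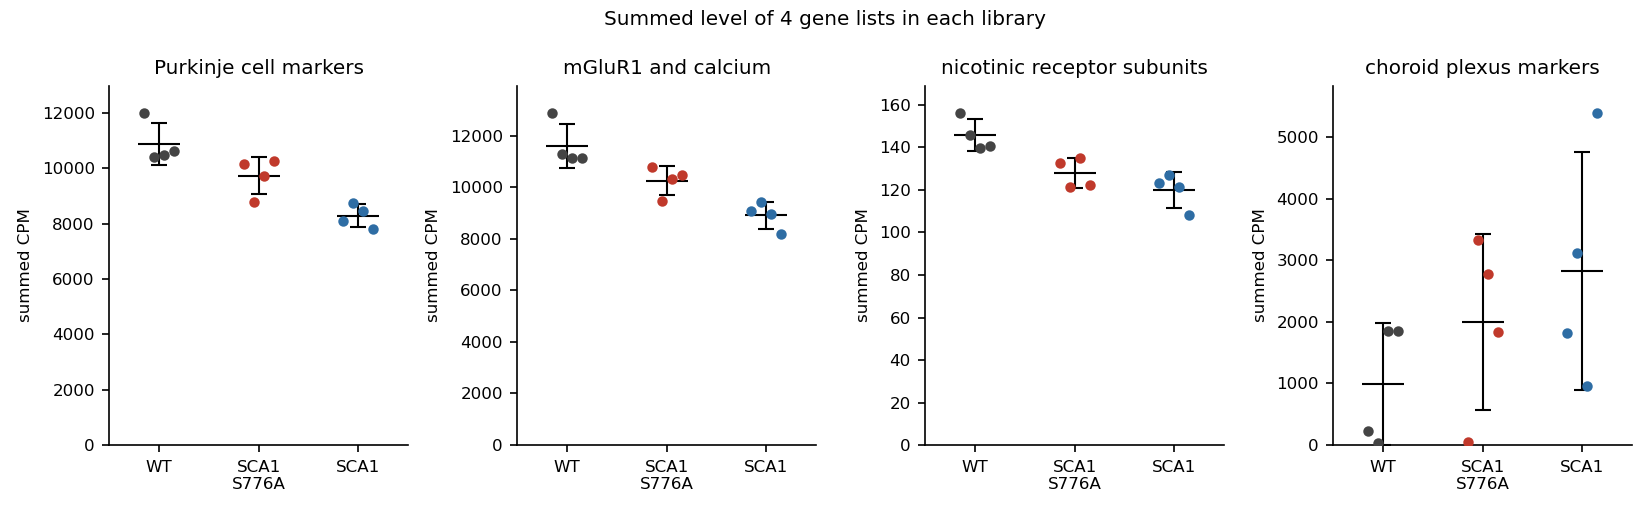
Points are the summed CPM of 4 gene lists in each of the 4 WT, 4 SCA1 S776A and 4 SCA1 libraries, with means and SDs (n = 4). The Purkinje sums of SCA1 S776A, 8792 to 10274 CPM, lie below those of WT and above those of SCA1, while the choroid plexus sums range from 38.3 to 3328 CPM over the WT and SCA1 S776A libraries.

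The calls rested on the full set of libraries. With 1 library left out at a time, the call of 4930447F24Rik was lost in 8 of 8 fits. Chrna3 kept its call in 1, without WT 4, and Gm5083 in 2, without WT 4 or without SCA1 S776A 1. The adjusted p of Chrna3 rose to at most 0.0667 and the log2 fold change stayed between -1.20 and -1.01. In a fit of the 8 libraries alone, 0 genes were lower and 1 higher (A830018L16Rik), with edgeR adjusted p of 0.0103 for Gm5083 and 0.0358 for Chrna3. With the choroid plexus level in the fit, 1 gene was called, Gm5083, while Chrna3 and 4930447F24Rik, at -1.08 and -0.76, each had an edgeR adjusted p of 0.0108. Without the 3 libraries under 500 CPM of choroid plexus markers, 0 were called, and the log2 fold change was -0.97 for Chrna3, -0.50 for Gm5083, -0.81 for 4930447F24Rik and -0.75 for Chrnb4 (SE 0.28). The Chrnb4 value was -0.95 without WT 2, the library with its highest level.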

How the data were processed

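RNA of mouse cerebellum (total RNA, paired reads of 150 bp) was measured in 24 libraries. The authors used Trimmomatic 0.36 for trimming and STAR 2.7.2d for alignment to GRCm38.p6, and deposited unnormalized counts of fragments per gene, before batch correction. The unstranded counts were used, since the gene totals of the 2 strands had a ratio of 0.9995 to 1.0035 in every library. Of 54232 gene identifiers, 54165 matched GENCODE M21. Some features of those tables are not reported here.

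All 24 libraries were fitted in edgeR 4.0.16 (R 4.3.3; TMM, filterByExpr, robust quasi-likelihood), with 1 coefficient for each of 6 genotype-by-batch groups. The study's tools were ComBat-seq and DESeq2 1.28.1, and DESeq2 1.42.0 and sva 3.50.0 were run as alternatives. The ComBat-seq alternative was fitted by genotype alone, so its WT group held the libraries of both batches. CPM are TMM-scaled. The spread between mice was 12.9% (biological coefficient of variation) over all 24 libraries, and 11.2% in a fit of the 8 compared libraries alone. The tests were checked on simulated data. Pairs within a group differed by at least 8.67 (chi-square per degree of freedom), so no library was a duplicate. Intervals and SEs describe these mice. SEs of the main fit come from all 24 libraries and are not the spread of the compared libraries alone.

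Named genes are Atxn1, Atxn1l, Cic, Calb1 and Gfap, the called genes, the 10 lower and 10 higher genes of lowest p with non-overlapping groups and a mean of at least 1 CPM, and 2 genes of lowest p from each of 23 lists. Chrna4, Gm15083, and further list members were named after their values were seen. The members, lists and thresholds were chosen with earlier results of these data known. Other choices tried were other size factors, filters, thresholds, sample sets, a sex term, a choroid plexus term and leaving out each library. The choroid plexus settings were chosen after seeing the data. The thresholds are those of the study.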

Additional observations from a re-analysis of the deposited data

Results flagged for a closer look

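A value was marked where 1 library of a group of 4 lay far from the other 3, with its gap to the nearest, as a share of the group's range, past Dixon's critical value. Chance marks about 1 in 20 groups, and 8 of 150 were marked, where 7.5 would be expected by chance. WT 1 was high in summed Purkinje cell markers, at 12013 CPM against 10410 to 10614 CPM in the other WT libraries, and also in Inpp5a (565 CPM against 462 to 477) and Gad2 (159 CPM against 146 to 148). WT 3 was low in Cic, at 223 CPM against 237 to 239, and in Calb2, at 434 CPM against 466 to 473. WT 4 was high in Cry1, at 64.3 CPM against 46.4 to 47.7. SCA1 S776A 1 was high in Myo15, at 5.28 CPM against 3.87 to 4.10, and still below the lowest WT library. SCA1 S776A 3 was high in mt-Nd4l, at 1.95 CPM against 1.62 to 1.64.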

How the results depend on the processing

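Size factors by RLE, a sex term, a mean of at least 1 CPM and no filter kept the counts within 1.5 times the main ones. Against WT, the main fit called 3 lower and 0 higher. Counts of lower and higher genes were 0 and 0 with the 16 libraries of the batch and 0 and 1 with the 8 libraries. They were 7 and 2 with DESeq2, and 17 and 17 with ComBat-seq then DESeq2, which used WT libraries of both batches. An adjusted p under 0.05 gave 5 and 0, and an unadjusted p under 0.05 gave 439 and 446 (3.93% of genes tested). A choroid plexus term gave 1 lower, and leaving out the 3 libraries low in choroid plexus gave 0. Leaving out 1 library at a time gave 0 to 2 lower. Against SCA1 (0 lower, 1 higher), the 2 groups alone gave 0 higher, as did leaving out the libraries low in choroid plexus. DESeq2 gave 4 higher, ComBat-seq then DESeq2 5 lower and 7 higher, an unadjusted p under 0.05 gave 426 and 553, and leaving out 1 library gave 0 to 2 higher, with 0 without SCA1 1 or SCA1 2 (the SCA1 libraries were left out in turn as a choice made after seeing the data). The cause was not tested.

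The log2 fold change of Atxn1 ran from 0.23 to 0.32 over all 18 refits and was never called. Of 1203 pairs of a named gene and a refit, 7 changed direction, none in a called gene. Without the libraries low in choroid plexus, Atxn1l was 0.017 and mt-Nd4l 0.021. With 1 library left out at a time, Atxn1l ran from -0.046 to 0.016, Gfap from -0.013 to 0.18 and Lmx1a from -0.31 to 0.22, and the sign turned without WT 1 for Atxn1l, without SCA1 S776A 4 for Gfap, and without SCA1 S776A 1, WT 3 or WT 4 for Lmx1a. No paired analysis was possible because the labels carry no replicate numbers, and the numbers used here only name the libraries. The depth of Chrna3 and Chrnb4, at 43 to 179 counts per library, limits their precision.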
